A study of Mus musculus with 21 samples.

Results

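The genes described here are Sirpa, which encodes SIRPα, its ligand gene Cd47, and the genes of 7 further receptors with inhibitory signalling motifs, namely Cd300a, Cd300lf, Siglecg, Siglece, Pilra, Lilrb4a and Lair1. The 9 genes were chosen by name, with earlier results of these data known. Of the 9, 8 have a row under their name among the 37734 genes listed. All 8 passed the filter on low values (10 or more normalized reads in 3 or more samples) that 14970 genes passed. The exception was Lilrb4a, for which no row carries the name. RNA was measured by RNAseq in conventional dendritic cells (cDCs) of C57BL/6 mice aged 6 to 8 weeks, with no treatment in any group. The 6 groups were immature cDC1 from spleen (SP1Minus, 5 libraries counted as 4 samples) and from thymus (TH1Minus, 4 samples), mature cDC1 from thymus (TH1Plus, 3 samples), and the corresponding cDC2 groups SP2Minus, TH2Minus and TH2Plus (3 samples each). CD11c+ cells were enriched with beads from digested organs and sorted as CCR7- Esam- (immature) or CCR7+ Esam+ (mature) cells. The cDC1 gate took CD11c+ CD24+ cells and excluded CD11b, B220, F4/80, Ly6g, Ly6c and DX5, whereas the labels give for cDC2 the gate B220- CD24- CD11b+ CD11c+, without F4/80 or Ly6c. Each library came from cells pooled from several mice, so that a sample is a pool and not an animal. The 4 samples of splenic cDC1 carry 3 pool labels, as do the 4 of immature thymic cDC1, in which replicates 3 and 4 also share index and lane. The study's antibody panel included SIRPα, and the difference in Sirpa between cDC2 and cDC1 is therefore not independent of how the subsets were told apart.

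Inhibitory receptors of this kind are membrane proteins with an extracellular ligand-binding part and a cytoplasmic tail that carries tyrosine-based inhibitory motifs. When Src family kinases phosphorylate these tyrosines, the tail recruits the phosphatases SHP-1, SHP-2 or SHIP-1, which damp signals from activating receptors in the same cell. SIRPα binds CD47, a protein present on nearly all cells, and this contact restrains phagocytosis by macrophages and dendritic cells. In mouse dendritic cells, SIRPα is a standard surface marker of cDC2.

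Depth ranged from 14266867 to 40119669 reads per library. The values are normalized read counts, that is reads of a gene divided by 1 size factor per library. Replicates 4 and 5 of splenic cDC1 came from the same pool, index and lane, differed far less than other pairs (chi-square per degree of freedom 2.53, against 26.9 to 190 in the other pairs) and were counted as 1 sample. The labelled subsets could be recognized by most of their markers. In spleen 7 of 7 cDC1 markers were lower in cDC2 than in cDC1, and 6 of 7 cDC2 markers were higher. In immature thymus 6 of 7 cDC1 markers were lower, and in mature thymus 5 were lower and 1 higher. In both, 6 of 7 cDC2 markers were higher. Itgam among the cDC2 markers, and Ccr7 and Esam among those of mature cDCs, are genes of the sort. For these genes the check is not independent of it. The summed value of 7 markers of mature cDCs was 416511 to 592568 in the mature samples and at most 39265 in the immature ones. Itgam, which encodes the CD11b of the cDC2 gate, had a mean of 1581 in splenic cDC2 but of 20.4 in mature thymic cDC2. In the mature thymic cDC2, replicate 3 stood apart from replicates 1 and 2 (chi-square per degree of freedom 135 and 155, against 29.1 between the other two), and results that rest on it are given with and without it. By the same measure splenic cDC1 replicate 3 (108 to 190) and splenic cDC2 replicate 2 (115 and 143, against 38.3) also stood apart from their groups. Immature thymic cDC1 replicate 3 (60.9 to 100) and mature cDC1 replicate 3 (51.8 and 61.6, against 21.4) did so less. Because the samples are bulk RNA, fewer cells of a type and less RNA per cell cannot be told apart. All p-values measure the spread between these samples, which in the main fit is 1 estimate per gene shared by all 6 groups.

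The 8 genes showed 2 main patterns. The 7 receptor genes were higher in cDC2 than in cDC1 in spleen, in immature thymic cells and in mature thymic cells, and 6 of these 7 fell with maturation in thymic cDC1, Siglece and Pilra among them from levels near the limit of detection. Cd47 was not called between the subsets (at most a log2 difference of 0.61, in immature thymus) and was the one gene of the 8 that rose with maturation in cDC1. These differences are larger than the spread between samples except where stated, and a gene is said to have risen or fallen where limma gave a Benjamini-Hochberg adjusted p below 0.1 over the 14970 genes and a log2 fold change beyond 1 in either direction. The fold changes on the log2 scale are of the value plus 1, which understates changes of low genes.

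**Figure D1:**
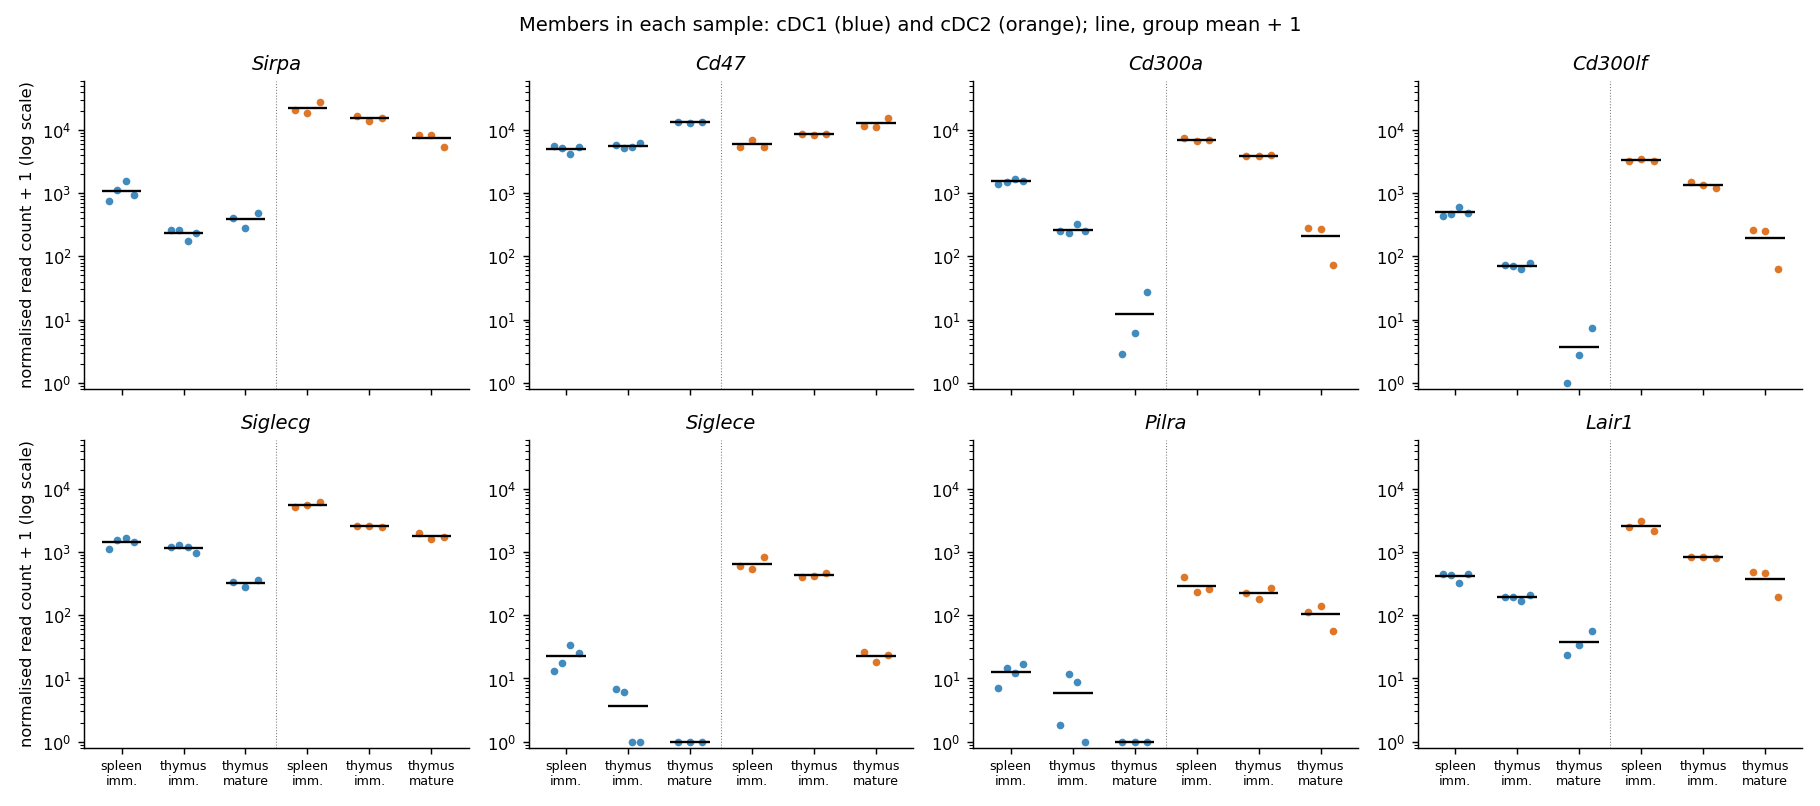
Normalized read count plus 1 (log axis) of the 8 genes in each sample of the 6 groups; points are samples, horizontal lines group means, blue is cDC1 and orange cDC2, with a dotted line between them. For Sirpa the cDC2 samples (5415 to 28215) lie above every cDC1 sample (173 to 1548), whereas Cd47 lies between 4145 and 15350 in all groups.

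Sirpa (ENSMUSG00000037902, GRCm38/mm10 chr2:129592835-129632228, plus strand) had the highest value per kb of exon of the 8 genes in immature cDC2. The 3 splenic cDC2 samples had 20847, 18967 and 28215 normalized reads (mean 22676 ± 4888, SD, n = 3), and the 4 splenic cDC1 samples had 749, 1126, 1548 and 946 (1092 ± 340, n = 4). In immature thymus the values were 16706, 13773 and 15429 in cDC2 (15302 ± 1471, n = 3) and 260, 265, 173 and 236 in cDC1 (234 ± 42.2, n = 4). After maturation they were 8425, 8398 and 5415 in thymic cDC2 (7413 ± 1730, n = 3) and 409, 286 and 481 in thymic cDC1 (392 ± 98.4, n = 3). The order from high to low was splenic, immature thymic and mature thymic cDC2, then splenic, mature thymic and immature thymic cDC1, and no neighbours in this order overlapped.

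Maturation was accompanied by opposite shifts of Sirpa in the 2 thymic subsets. In cDC2 it fell by 1.07 on the log2 scale (SE 0.25, limma, adjusted p = 0.00148), a 2.06-fold difference of means with no overlap. Without replicate 3 of mature cDC2 the log2 fold change was -0.86 (limma, adjusted p = 0.0138), which no longer passed the fold threshold. In cDC1 the log2 fold change was 0.73 (95% interval 0.24 to 1.22, limma, adjusted p = 0.0116), under the fold threshold although the mature samples lay above the immature ones. The difference between these changes was itself past the threshold, at -1.80 (SE 0.35, limma, adjusted p = 0.00148). Sirpa also differed between organs in cDC1, where it fell from spleen to thymus by 2.19 on the log2 scale (SE 0.22, limma, adjusted p = 4.28e-07), a 4.67-fold difference. In cDC2 the log2 difference between organs was -0.55 (95% interval -1.08 to -0.02, limma, adjusted p = 0.138), and the organ effects differed by 1.64 (cDC2 minus cDC1, SE 0.33, limma, adjusted p = 0.00441). Reads of Sirpa may be shared with its close relatives Sirpb1a, Sirpb1b and Sirpb1c, since the handling of reads with several matches is not given in the sources used here. These 3 genes had means of 8713, 1705 and 729 in splenic cDC2, below Sirpa, and Sirpb1a had 1736 in immature and 86.0 in mature thymic cDC2.

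Cd47 (ENSMUSG00000055447, chr16:49800533-49915010, plus strand) encodes the ligand of SIRPα and is expressed on most cells. Immature cDC1 had 5641, 5300, 4145 and 5370 normalized reads in spleen and 5815, 5222, 5388 and 6367 in thymus. Immature cDC2 had 5479, 6999 and 5470 in spleen and 8800, 8521 and 8609 in thymus. The mature thymic cells had the highest values, with 13590, 13142 and 13232 in cDC1 (13321 ± 237, n = 3) and 11757, 11275 and 15350 in cDC2 (12794 ± 2226, n = 3). The mature groups overlapped each other, as did splenic cDC2 with both immature cDC1 groups, while immature thymic cDC2 stood between them. In thymic cDC1 Cd47 rose 2.34-fold with maturation (log2 fold change 1.23, SE 0.14, limma, adjusted p = 2.2e-07), with no overlap. In thymic cDC2 the difference was 1.48-fold (log2 fold change 0.55, SE 0.15, limma, adjusted p = 0.00464), also without overlap but under the fold threshold. Between the subsets the log2 difference (cDC2 minus cDC1) was 0.23 in spleen (95% interval -0.07 to 0.52), 0.61 in immature thymus (SE 0.14, limma, adjusted p = 0.00284) and -0.07 in mature thymus (95% interval -0.38 to 0.24), none of them past the fold threshold. The difference between spleen and thymus was 0.16 in cDC1 (95% interval -0.11 to 0.43) and 0.54 in cDC2 (limma, adjusted p = 0.0133). Thus the receptor gene Sirpa fell and the ligand gene did not fall when thymic cDC2 matured.

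The 2 CD300 genes lie near each other on chromosome 11 on opposite strands and showed the steepest drops with maturation in cDC1. Cd300a (ENSMUSG00000034652, chr11:114890041-114904654, plus strand) and Cd300lf (ENSMUSG00000047798, chr11:115116214-115133992, minus strand) encode receptors that bind phospholipids exposed on dying cells. Because they moved together, the 250 bases before their RefSeq starts (GRCm38.p6, 5′ to 3′ on the strand of the gene) are shown next to those of Siglece, which also fell steeply in cDC2, and of Cd47, which did not fall. Capitals mark TTCCTC, the reverse complement of GAGGAA, a core bound by the myeloid transcription factor PU.1.
Cd300a (chr11:114889791-114890040, plus strand): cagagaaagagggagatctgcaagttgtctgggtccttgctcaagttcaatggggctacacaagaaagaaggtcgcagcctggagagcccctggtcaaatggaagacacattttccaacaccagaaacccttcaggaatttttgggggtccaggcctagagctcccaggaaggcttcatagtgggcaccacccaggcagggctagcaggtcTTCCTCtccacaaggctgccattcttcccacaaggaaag
Cd300lf (chr11:115133993-115134242, minus strand): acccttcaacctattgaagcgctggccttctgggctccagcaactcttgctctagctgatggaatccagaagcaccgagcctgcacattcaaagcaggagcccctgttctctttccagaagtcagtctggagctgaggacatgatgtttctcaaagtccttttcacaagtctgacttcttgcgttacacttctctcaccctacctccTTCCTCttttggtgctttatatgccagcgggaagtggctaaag
Siglece (chr7:43660162-43660411, minus strand): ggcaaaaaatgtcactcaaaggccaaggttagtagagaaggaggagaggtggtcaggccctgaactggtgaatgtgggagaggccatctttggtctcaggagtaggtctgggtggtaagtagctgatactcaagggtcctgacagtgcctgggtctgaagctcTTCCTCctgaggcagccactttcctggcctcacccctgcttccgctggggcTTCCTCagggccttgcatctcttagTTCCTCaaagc
Cd47 (chr16:49855404-49855653, plus strand): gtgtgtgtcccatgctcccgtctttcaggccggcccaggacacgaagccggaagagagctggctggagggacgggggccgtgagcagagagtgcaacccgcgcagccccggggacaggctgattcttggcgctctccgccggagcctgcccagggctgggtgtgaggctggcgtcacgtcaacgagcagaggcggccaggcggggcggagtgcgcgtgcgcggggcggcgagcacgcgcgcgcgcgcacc
The match lay at -39 to -34 in Cd300a and at -43 to -38 in Cd300lf relative to the start, and Siglece held 3 matches, beginning at -87, -36 and -11. With both strands searched, 6 of the 7 genes that have a promoter window held GAGGAA in at least 1 window, against 23.3% of 32851 promoters of that length. That share is per promoter, whereas Siglecg and Cd47 had more than 1 window, and 1 window of Siglecg lacked the motif. Siglecg and Pilra, whose change with maturation in cDC2 was not called, were among the 6. An NF-kB motif and an IRF element, both allowing some free positions, were found in 0.356% and 2.98% of all promoters, and of the 7 genes only Pilra held one of them, the IRF element. These matches are letters in a window and do not show binding.

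Cd300a had 7488, 6825 and 6894 normalized reads in splenic cDC2, 3936, 3898 and 3998 in immature thymic cDC2, and 279, 268 and 71.4 in mature thymic cDC2. In cDC1 it had 1395, 1529, 1656 and 1569 in spleen, 248, 230, 320 and 252 in immature thymus, and 1.84, 5.20 and 26.4 in mature thymus. The levels formed steps that did not overlap, except between mature cDC2 and immature thymic cDC1. With maturation Cd300a fell 23.5-fold in thymic cDC1 (log2 fold change -5.06, SE 0.51, limma, adjusted p = 3.35e-08) and 19.1-fold in thymic cDC2 (log2 fold change -4.49, SE 0.54, limma, adjusted p = 8.72e-07). Without replicate 3 the log2 fold change in cDC2 was -3.85 and still passed the thresholds. The fall in cDC1 was deeper than in cDC2 by 0.57 on the log2 scale, a difference that did not pass the test (SE 0.74, limma, adjusted p = 0.68).

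Cd300lf had 3210, 3547 and 3277 normalized reads in splenic cDC2, 1517, 1330 and 1217 in immature thymic cDC2, and 258, 255 and 62.0 in mature thymic cDC2. In cDC1 it had 428, 470, 597 and 491 in spleen, 71.8, 68.3, 62.4 and 76.8 in immature thymus, and 0, 1.73 and 6.40 in mature thymus. As for Cd300a, replicate 3 of mature cDC2 had the lowest value of its group, while replicate 3 of mature cDC1, from a pool with the same label, had the highest. The mature cDC1 values correspond to 1, 3 and 33 reads of Cd300a and to 0, 1 and 8 reads of Cd300lf, so that their folds rest on few reads. Without mature cDC1 replicate 3, the log2 fold change with maturation was -5.96 for Cd300a and -5.42 for Cd300lf. With maturation Cd300lf fell at least 16.0-fold in cDC1 against a floor of 3 reads per library (log2 fold change -4.70, SE 0.49, limma, adjusted p = 6.05e-08) and 7.06-fold in cDC2 (log2 fold change -3.07, SE 0.52, limma, adjusted p = 6.1e-05, and -2.39 without replicate 3). The maturation effects of the 2 subsets differed by 1.63 (SE 0.72, limma, adjusted p = 0.147). That difference passed the test without mature cDC2 replicate 3 (2.31, limma, adjusted p = 0.0198) or without mature cDC1 replicate 3 (2.35, limma, adjusted p = 0.0117). Without the latter, the difference of Cd300a passed as well (1.47, limma, adjusted p = 0.0638).

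Siglecg and Siglece, both on chromosome 7, encode lectins that bind sialic acids on glycoproteins and glycolipids. Siglecg (ENSMUSG00000030468, chr7:43408204-43418358, plus strand), best known as an inhibitor of B cell receptor signals and as a receptor for CD24, was present in every group. It had 5185, 5579 and 6212 normalized reads in splenic cDC2, 2580, 2622 and 2505 in immature thymic cDC2, and 1994, 1632 and 1727 in mature thymic cDC2. In cDC1 it had 1141, 1575, 1698 and 1426 in spleen, 1229, 1290, 1208 and 975 in immature thymus, and 334, 281 and 365 in mature thymus. The mature cDC1 samples were the lowest and overlapped no other group, whereas mature cDC2 overlapped splenic cDC1. Siglecg fell 3.6-fold with maturation in cDC1 (log2 fold change -1.85, SE 0.15, limma, adjusted p = 1.08e-09). In cDC2 the difference was 1.44-fold (log2 fold change -0.53, SE 0.16, limma, adjusted p = 0.00842) and did not pass the fold threshold. The effects differed between the subsets by 1.32 (SE 0.21, limma, adjusted p = 0.000333).

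Siglece (ENSMUSG00000030474, chr7:43651070-43660161, minus strand) fell steeply with maturation in cDC2. It had 593, 537 and 825 normalized reads in splenic cDC2, 405, 415 and 466 in immature thymic cDC2, and 25.3, 17.4 and 22.8 in mature thymic cDC2. Splenic cDC1 had 12.4, 16.8, 32.3 and 23.9, immature thymic cDC1 5.91, 5.0, 0 and 0, and mature thymic cDC1 0 in all 3 samples. Siglece was therefore near the limit of detection in thymic cDC1, where 3 reads, the limit that a count of 0 allows, are 2.40 to 5.53 normalized reads in the mature samples. Intervals and limits of this kind cover counting error only. With maturation it fell 19.6-fold in cDC2 (log2 fold change -4.25, SE 0.64, limma, adjusted p = 1.42e-05), with no overlap and with -4.28 when replicate 3 was left out. In cDC1 the fitted log2 fold change of -1.34 passed the thresholds (limma, adjusted p = 0.06), but the means of both groups were at or under the floor and the groups overlapped, so no fold is given. The call in cDC1 was lost without immature thymic cDC1 replicate 1 (-0.86, limma, adjusted p = 0.215) or replicate 2 (-0.93, limma, adjusted p = 0.197), and without mature cDC1 replicate 1 (-1.34, limma, adjusted p = 0.101). The difference between subsets, -2.90 (SE 0.87, limma, adjusted p = 0.0321), rests on these values near 0, and on the recovered reads edgeR gave 0.60 (adjusted p = 0.668) and DESeq2 -0.66 (adjusted p = 0.795).

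Pilra (ENSMUSG00000046245, chr5:137821952-137836281, minus strand) encodes a receptor for sialylated O-glycosylated proteins and was the lowest of the 8 genes per kb of exon in splenic and immature thymic cDC2. It had 398, 230 and 256 normalized reads in splenic cDC2, 226, 180 and 271 in immature thymic cDC2, and 114, 139 and 56.5 in mature thymic cDC2. In cDC1 it had 6.18, 13.8, 11.1 and 16.0 in spleen, 0.845, 10.8, 7.80 and 0 in immature thymus, and 0 in the 3 mature samples. No cDC1 sample reached the level of any cDC2 sample. In thymic cDC2 Pilra did not pass the test for maturation (log2 fold change -1.20, 95% interval -2.67 to 0.27, limma, adjusted p = 0.176), although the groups did not overlap. The fall passed with DESeq2 on the recovered reads (-1.13, adjusted p = 0.0414) and with a pseudocount of 8 (-1.14, limma, adjusted p = 0.0143). With limma it also passed with only the groups compared (adjusted p = 0.028) and with 1 sample per group and pool (adjusted p = 0.0848). Without mature cDC2 replicate 3 Pilra had -0.82 (limma, adjusted p = 0.435). In thymic cDC1 it passed (log2 fold change -1.90, SE 0.66, limma, adjusted p = 0.0184), the groups overlapped, and against the floor it was at least 1.11-fold lower. The call in cDC1 was lost with a pseudocount of 8 (-0.59, limma, adjusted p = 0.151) and with only the groups compared in the fit (limma, adjusted p = 0.109). Of its exon bases 468 (15.1%) overlap Zcwpw1 on the other strand, and with the strand setting of the counting not given, reads there could belong to either gene. Its relatives Pilrb1 and Pilrb2, which encode activating counterparts and can share reads with it, had means of 262 and 240 in splenic cDC2.

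Lair1 (ENSMUSG00000055541, chr7:4003402-4063204, minus strand) encodes a receptor for collagens and C1q. It had 2506, 3142 and 2167 normalized reads in splenic cDC2, 847, 840 and 796 in immature thymic cDC2, and 480, 466 and 191 in mature thymic cDC2. In cDC1 it had 456, 430, 321 and 452 in spleen, 198, 196, 169 and 212 in immature thymus, and 22.1, 32.9 and 55.2 in mature thymus. Mature thymic cDC2 overlapped splenic and immature thymic cDC1, and the other neighbouring groups were apart. Lair1 fell 5.27-fold with maturation in cDC1 (log2 fold change -2.46, SE 0.30, limma, adjusted p = 4.57e-07) and 2.19-fold in cDC2 (log2 fold change -1.24, SE 0.32, limma, adjusted p = 0.0028). The call in cDC2 was lost without replicate 3 of the mature group (-0.81, limma, adjusted p = 0.0264). The difference between the effects was 1.22 (SE 0.43, limma, adjusted p = 0.071), and it lost its call when any of 10 single samples was left out, with adjusted p of 0.103 to 0.191. Those samples were immature thymic cDC1 replicates 1, 2 and 4, mature cDC1 replicates 1 and 2, the 3 immature thymic cDC2 samples, and mature cDC2 replicates 1 and 2.

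No value can be given for Lilrb4a, the gene of an inhibitory receptor of the leukocyte immunoglobulin-like family. A row named Lilrb4 (ENSMUSG00000062593) had 0 reads in every library except mature thymic cDC2 replicate 2, which had 1. In the annotation used here, 1846 of its 1990 exon bases (92.8%) lie on Lilrb4a on the same strand, so that a low count of that row says nothing about Lilrb4a. Its distant relative Pirb, which encodes another inhibitory receptor of that family, had means of 7226 in splenic and 10233 in mature thymic cDC2.

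To ask how the receptors are divided between the subsets, cDC2 and cDC1 were compared within each organ and maturation state. In each of the 3 settings 7 of the 8 genes were higher in cDC2, 0 were lower and Cd47 was not called. Of these 7, Sirpa encodes a protein of the sort panel and is no independent finding. Siglece and Pilra were near the floor in thymic cDC1 and passed the filter on low values through other groups. Since the genes were chosen with earlier results known, the shares over all genes are given for scale only. Over all genes tested, the share called higher in cDC2 was 9.93% in spleen, 11.0% in immature thymus and 14.6% in mature thymus, and the share called lower was 6.70%, 5.42% and 4.36%. The median log2 fold change of the 8 genes was 2.70, 4.09 and 4.36, against 0.02, 0.01 and 0.14 over all genes. With Siglece, Pilra and Cd300lf at their lower bounds, the median in mature thymus was 3.78.

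**Figure D2:**
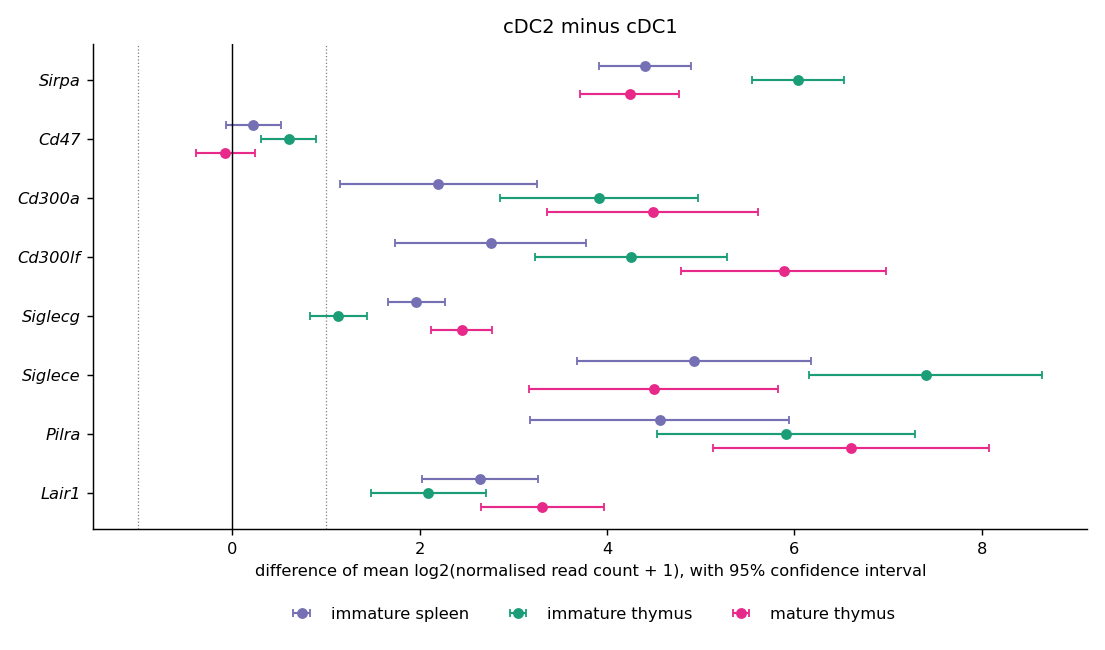
Difference of mean log2(value + 1), cDC2 minus cDC1, of the 8 genes in spleen, immature thymus and mature thymus; points are fitted differences, bars 95% intervals, the line at 0 marks equal levels and the dotted lines a difference of 1 in either direction. Sirpa lies between 4.24 and 6.04 in the 3 settings, whereas Cd47 lies between -0.07 and 0.61.

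Sirpa differed 20.8-fold in spleen (log2 fold change 4.40, SE 0.24, limma, adjusted p = 1.58e-11), 65.5-fold in immature thymus (6.04, SE 0.24, limma, adjusted p = 4.22e-13) and 18.9-fold in mature thymus (4.24, SE 0.25, limma, adjusted p = 1.45e-09). Since the panel of the sort held SIRPα, these values describe the sorted subsets and are no independent finding. Siglece differed 30.5-fold in spleen, and against a floor of 3 reads per library in cDC1 it was at least 134-fold higher in cDC2 in immature thymus and at least 4.99-fold higher in mature thymus. Pilra was 25.0-fold and 46.4-fold higher in cDC2, and at least 23.6-fold higher in mature thymus. For Siglece the limma adjusted p in the 3 settings was 2.15e-06, 8.88e-09 and 3.1e-05, and for Pilra 2.01e-05, 8.26e-07 and 1.14e-06.

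Cd300a, Cd300lf, Siglecg and Lair1 were higher in cDC2 in the 3 settings as well. Cd300a was 4.6-fold higher in splenic cDC2 (limma, adjusted p = 0.00242), 15.0-fold in immature thymus (adjusted p = 5.23e-06) and 18.5-fold in mature thymus (adjusted p = 4.7e-06). Cd300lf was 6.73-fold and 19.4-fold higher in spleen and immature thymus and at least 43.8-fold higher in mature thymus (limma, adjusted p = 0.000203, 1.19e-06 and 1.23e-07). Without mature cDC1 replicate 3 the log2 difference in mature thymus was 5.39 for Cd300a and 6.61 for Cd300lf. Siglecg was 3.88-fold, 2.19-fold and 5.47-fold higher (limma, adjusted p = 2.3e-09, 5.24e-06 and 2.5e-09). Lair1 was 6.28-fold, 4.28-fold and 10.3-fold higher (limma, adjusted p = 7.28e-07, 1.56e-05 and 2.87e-07). No cDC1 sample overlapped the cDC2 samples of its setting in any of the 7 receptor genes.

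As a share of the cDC2 level, the cDC1 level of Sirpa was 4.82% in spleen, 1.53% in immature thymus and 5.29% in mature thymus. Cd47 stood at 85.5%, 65.9% and 104%, and Siglecg at 25.8%, 45.8% and 18.3%. For comparison, the cDC1 level of Cd209a, a lectin gene of cDC2, was 2.84%, 0.503% and 1.91% of that in cDC2, and the median over 7 cDC2 markers was 2.84%, 1.99% and 16.1%. In spleen, Sirpa, Siglece and Pilra stood at 3.28% to 4.82%, Cd300lf at 14.8%, Lair1 at 15.9% and Cd300a at 21.7%. All of these lay within the range of the 7 cDC2 markers in spleen, which was 1.73% to 96.1%, with Cd4 at 11.1% and Irf4 at 22.0%. The upper end was Notch2, which had a similar level in both subsets. The range therefore also held Cd47 and does not set the receptors apart from undivided genes.

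Markers of macrophages differed between the subsets, in their sum only in spleen and immature thymus. Of 10 such genes, 6 were higher in cDC2 in spleen, 8 in immature thymus and 7 in mature thymus, and 0 were lower. Their summed value was 753 to 1218 in splenic cDC1 against 6794 to 7937 in splenic cDC2, 1097 to 1333 against 10922 to 12365 in immature thymus, and 7168 to 12244 against 6408 to 10205 in mature thymus, with Cd5l at 0 in both thymic cDC1 groups. Adgre1, the gene of F4/80, had means of 118 and 4534 in splenic cDC1 and cDC2. The labels name the exclusion of F4/80 for cDC1 only, whereas the study describes both subsets as negative for F4/80. Summed markers of NK cells were 114 to 187 in splenic cDC2 and at most 11.7 in the other groups. Markers of monocytes and neutrophils summed to 11178 to 13037 in immature thymic cDC2 and 1350 to 2329 in immature thymic cDC1, with Elane and Retnlg at 0 in both. The part of such cells in the subset differences was not tested.

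Lanes were considered because the libraries were sequenced in lanes 5 and 8. Within each lane, 8 of 8 genes kept the direction found over all samples in every comparison that the lane allowed, and the Sirpa difference in spleen was 4.43 in lane 5 and 4.54 in lane 8. In lane 8 alone, where spleen had 1 cDC2 and 2 cDC1 samples, Cd300a lost its call in spleen (2.10, limma, adjusted p = 0.243, against 2.20 over all samples), as did Cd300lf (limma, adjusted p = 0.126), whose log2 difference was still above 2. Both mature groups were sequenced only in lane 8, and the comparisons with immature cells within that lane had the same direction for all 8 genes.

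Mature and immature thymic cells were compared to ask how the receptors change as cDCs mature in the thymus. In cDC1, 6 of the 8 genes fell (Cd300a, Cd300lf, Siglecg, Siglece, Pilra and Lair1) and Cd47 rose, while 24.5% of all genes tested were lower and 21.3% higher. Of the 6, Siglece and Pilra had 0 reads in mature cDC1, had means of 2.73 and 4.87 in immature thymic cDC1 and passed the filter through other groups, so that 4 of the falls are of genes well above the floor in immature cDC1. In cDC2, 5 of the 8 fell (Sirpa, Cd300a, Cd300lf, Siglece and Lair1) and 0 rose, with 17.0% of all genes lower and 18.6% higher. Without mature cDC2 replicate 3 the count in cDC2 was 3. The median log2 fold change of the 8 genes was -1.87 in cDC1 and -1.22 in cDC2, against -0.04 and 0.04 over all genes. With Pilra and Cd300lf at their bounds and Siglece left out, the median in cDC1 was -1.85.

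**Figure D3:**
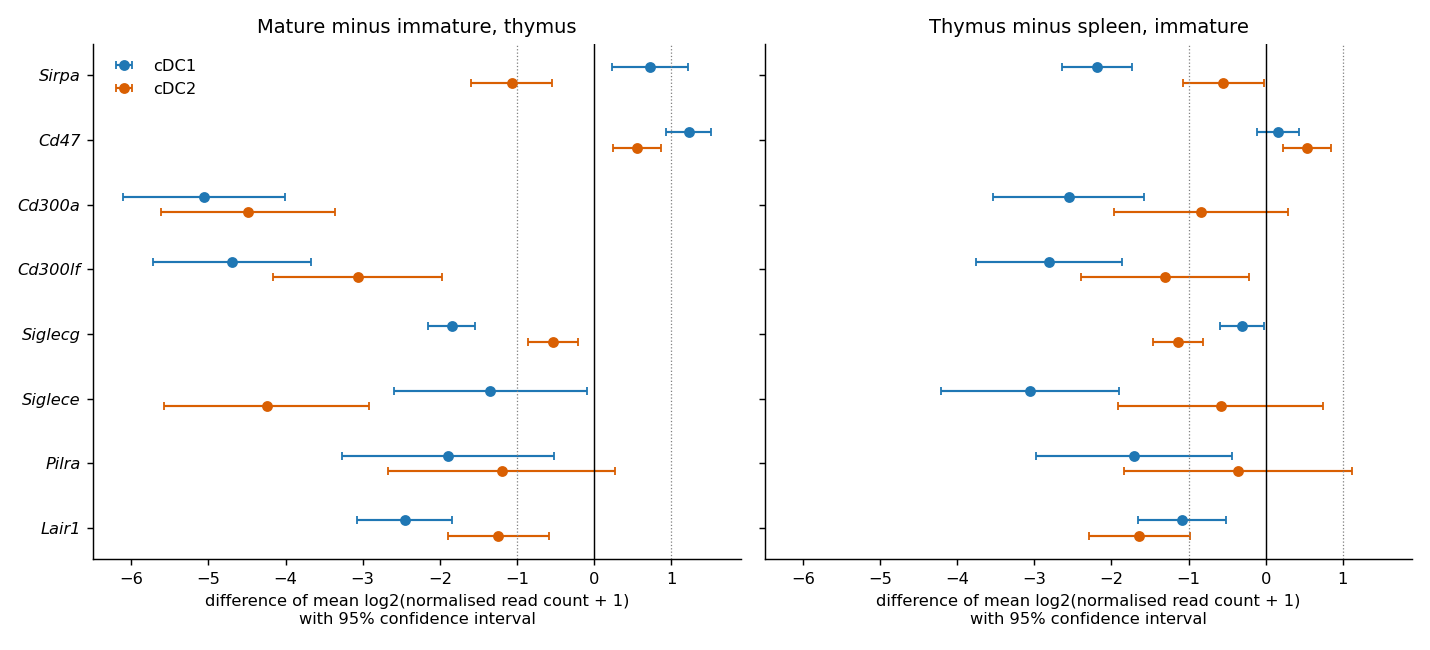
Differences of mean log2(value + 1) for mature minus immature thymic cells and for immature thymic minus splenic cells, in cDC1 and in cDC2; points are fitted differences, bars 95% intervals, and dotted lines mark the fold threshold of 1 in either direction. Cd300a and Cd300lf show differences of -5.06 and -4.70 with maturation in cDC1, and Cd47 is above 0 in both subsets.

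Several other gene groups moved with maturation. Of 10 T cell and thymocyte genes 8 were tested and all 8 rose in both subsets, with Ptcra at 0 in immature cDC1. Their summed value was 167 to 257 in immature and 1527 to 2415 in mature cDC1, and 178 to 326 in immature and 880 to 1375 in mature cDC2. Of the macrophage markers, 4 rose and 3 fell in cDC1, and 2 rose and 4 fell in cDC2. Markers of monocytes and neutrophils summed to 11178 to 13037 in immature and 338 to 1283 in mature cDC2, with Ly6g and Retnlg at 0 in both, and to 1350 to 2329 in immature and 86.6 to 223 in mature cDC1, where 3 of the 4 tested fell. Markers of B cells summed to 758 to 939 in immature and 107 to 173 in mature cDC1, with 1 of 5 tested higher and 1 lower, and to 380 to 555 and 252 to 411 in cDC2, with 1 higher and 2 lower. Itgax, the gene of CD11c, had means of 20869 and 2117 in immature and mature thymic cDC1 and of 37573 and 5234 in cDC2. The part of these cells in the receptor differences was not tested.

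The 3 mature cDC2 samples differed among themselves in the same genes. Replicate 3 had 26.1% of the mean of replicates 1 and 2 for Cd300a, 24.2% for Cd300lf, 40.3% for Lair1, 44.7% for Pilra and 64.4% for Sirpa. In contrast it had 95.2% for Siglecg, 107% for Siglece and 133% for Cd47. The sum of the complement genes C1qa, C1qb and C1qc, which thymic macrophages express strongly, was 12267, 13141 and 1513 in replicates 1 to 3, and Apoe was 18657, 17151 and 1872. The 10 macrophage markers summed to 9781, 10205 and 6408. In mature cDC1, replicate 3 had the highest values, with C1q sums of 57.1, 62.4 and 410 and Apoe at 60.8, 182 and 751. The 10 macrophage markers there summed to 8821, 7168 and 12244. Whether macrophage RNA accounts for the higher values of mature cDC2 replicates 1 and 2 was not tested. The same holds for the higher Cd300a and Cd300lf of mature cDC1 replicate 3.

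**Figure D4:**
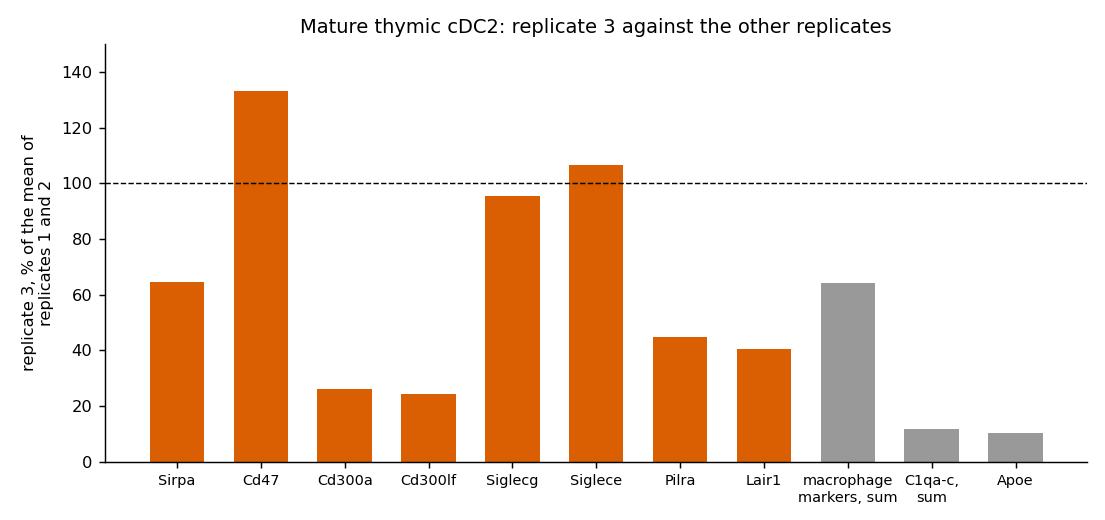
Value of replicate 3 of mature thymic cDC2 as a percentage of the mean of replicates 1 and 2, for the 8 genes and for macrophage genes; the dashed line marks 100%. Cd300a and Cd300lf stand at 26.1% and 24.2%, the C1q genes at 11.9% and Apoe at 10.5%, while Siglecg and Siglece are near 100%.

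In the main fit the effect of maturation was called different between the subsets for 4 of the 8 genes, Sirpa, Siglecg, Siglece and Lair1. As described above, the call of Siglece rests on values near 0 and was not made with edgeR or DESeq2. That of Lair1 was lost when single samples were left out. Among all genes 8.34% had a more positive effect in cDC2 and 5.25% a more negative one. Siglecg and Lair1 had the more positive effect in cDC2 and the larger decrease in cDC1. Sirpa, with the more negative effect in cDC2, fell there and had a log2 fold change of 0.73 in cDC1. For Siglece, also more negative in cDC2, the change in cDC1 could not be measured above the floor. A fall as large as that in cDC2 was not possible there. For Cd47 the difference was -0.68 (SE 0.21, limma, adjusted p = 0.0337), under the fold threshold, and for Pilra 0.70 (SE 0.97, limma, adjusted p = 0.704). The comparisons share their mature and immature samples with those above and are no separate evidence.

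Immature thymic and splenic cells were compared to ask how the organ bears on the receptors. In cDC1, 6 of the 8 genes were lower in thymus and 0 higher, while 4.52% of all genes were lower and 4.26% higher. In cDC2, 3 were lower (Cd300lf, Siglecg and Lair1) and 0 higher, while 5.87% of all genes were lower and 8.30% higher. The median log2 fold change was -1.95 in cDC1 and -0.71 in cDC2, against 0.00 and 0.02 over all genes. Markers of plasmacytoid dendritic cells differed in the same comparison of cDC2, where 7 of 8 tested were higher in thymus (sum 12111 to 13705 against 5532 to 5703), and 4 of 8 T cell and thymocyte genes were (178 to 326 against 31.2 to 89.7). In cDC1 the sums were 5322 to 6146 against 3770 to 4307 (2 of 8 higher, 1 lower) and 167 to 257 against 58.7 to 89.6 (6 of 8 higher). Of 5 tested B cell genes, 3 were lower in thymus in cDC1 (sum 758 to 939 against 1201 to 1799), and in cDC2 3 were lower and 1 higher (380 to 555 against 666 to 724, with Pax5 at 0 in thymic and Ebf1 at 0 in splenic cDC2). Rag2 was at 0 in both splenic groups, and the part of such cells in the organ differences was not tested.

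In cDC1 the members that fell from spleen to thymus beside Sirpa were Cd300lf (7.11-fold), Siglece (at least 6.7-fold), Cd300a (5.86-fold), Pilra (2.42-fold) and Lair1 (2.14-fold). The limma adjusted p was 0.000155 for Cd300lf, 0.000532 for Siglece, 0.000602 for Cd300a, 0.00949 for Lair1 and 0.079 for Pilra. The groups overlapped for Pilra, and its call was lost without splenic cDC1 replicate 2, 3 or 4 or immature thymic cDC1 replicate 1 or 4, with adjusted p of 0.117 to 0.278. With 1 sample per group and pool it was lost as well (-1.45, limma, adjusted p = 0.135). Siglecg did not pass in cDC1 (log2 fold change -0.30, 95% interval -0.59 to -0.02, limma, adjusted p = 0.182). In cDC2 it fell 2.2-fold (log2 fold change -1.14, SE 0.16, limma, adjusted p = 2.2e-05), and Lair1 fell 3.15-fold (-1.64, SE 0.32, limma, adjusted p = 0.000781).

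Cd300lf was 2.47-fold lower in thymic than in splenic cDC2 (log2 fold change -1.31, SE 0.52, limma, adjusted p = 0.0856). This call did not hold when any of the 6 samples of that comparison, or splenic cDC1 replicate 2 or 4, was left out (adjusted p of 0.1003 to 0.206), although the groups did not overlap. Cd300a had a log2 difference of -0.84 in cDC2 (95% interval -1.97 to 0.29, limma, adjusted p = 0.311), again without overlap of the samples. That interval rests on a spread shared by all 6 groups. The SD of Cd300a was 1.29% and 5.15% of the mean in immature thymic and splenic cDC2, but 119% in mature cDC1. Without mature cDC1 replicate 3 the adjusted p was 0.112 (limma). Over 36 alternatives the log2 difference was -0.87 to -0.76, under the fold threshold. Siglece (-0.58, 95% interval -1.91 to 0.75) and Pilra (-0.36, 95% interval -1.83 to 1.11) did not pass, although the groups did not overlap for Siglece. In lane 8 alone, with 1 splenic cDC2 sample, Lair1 lost its call in cDC2 (-1.40, limma, adjusted p = 0.157) and in cDC1 (-0.99, limma, adjusted p = 0.262).

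With limma on all groups, a difference of the organ effect between subsets was called for Sirpa alone among the 8 genes, with 3.27% of all genes more positive in cDC2 and 1.71% more negative. In lane 8 alone this call was lost (1.49, limma, adjusted p = 0.234). For Siglecg the difference was -0.83 (SE 0.21, limma, adjusted p = 0.0208), under the fold threshold. For Siglece it was 2.47 (SE 0.84, limma, adjusted p = 0.119) and passed without immature thymic cDC1 replicate 1 (2.95, limma, adjusted p = 0.0368) or replicate 2 (2.89, limma, adjusted p = 0.0541). For Cd300a it was 1.72 (SE 0.71, limma, adjusted p = 0.239), and it passed without mature cDC1 replicate 3 (limma, adjusted p = 0.0437), a sample of neither group compared that enters through the shared estimate of the spread. For Cd300lf the 95% interval of the difference was 0.054 to 2.94 (limma, adjusted p = 0.319). On the recovered reads these 3 genes passed with edgeR (adjusted p = 0.0866 for Siglece, 0.039 for Cd300a and 0.0652 for Cd300lf) and with DESeq2 (adjusted p = 0.00512, 0.0101 and 0.0173). Cd300a and Cd300lf also passed with only the groups compared in the fit (limma, adjusted p = 2.85e-05 and 0.000346).

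Levels of different genes can be compared only per kb of exon. By mean value per kb, Cd47 was the highest of the 8 genes in splenic (815), immature thymic (908) and mature thymic (2123) cDC1. In splenic cDC2 the order was Sirpa (4617 per kb), Cd300a (1492), Siglecg (1177) and Cd47 (953), and in immature thymic cDC2 Sirpa (3116 per kb), Cd47 (1377) and Cd300a (832). In mature thymic cDC2 the order of ligand and receptor gene was the reverse, with Cd47 at 2039 ± 355 and Sirpa at 1509 ± 352 per kb (SD, n = 3), and without replicate 3 they were at 1835 and 1713.

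Over the 20 samples the 7 receptor genes followed one another, with Pearson r between 0.65 and 0.98 (median 0.89 over 21 pairs) on the log2(value + 1) scale. Cd47 had r between -0.63 and 0.11 with the 7 receptors. The samples fall into 6 groups, so that these coefficients mainly describe the group levels. Among 10224 genes with a mean of at least 100, the genes most like Sirpa were Fcer1g (r = 0.99), which encodes the Fc receptor gamma chain, Ank (r = 0.98), a pyrophosphate transporter gene, and Wls (r = 0.98), which encodes a carrier of Wnt proteins. Fcer1g had means of 6585, 4349 and 2213 in splenic, immature thymic and mature thymic cDC2, and of 686, 251 and 294 in the same order in cDC1. The genes most like Siglecg were Tmem206 (r = 0.97), Sulf2 (r = 0.97), which encodes a heparan sulphate sulphatase, and Lair1 (r = 0.97).

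Other genes of the pathway were followed in lists chosen for their role. Over all genes tested, the shares called higher and lower were 21.3% and 24.5% for maturation in cDC1, and 18.6% and 17.0% in cDC2. In cDC2 against cDC1 they were 9.93% and 6.70% in spleen, 11.0% and 5.42% in immature thymus, and 14.6% and 4.36% in mature thymus. From spleen to thymus they were 4.26% and 4.52% in cDC1, and 8.30% and 5.87% in cDC2. Of 24 further inhibitory receptor genes listed, 21 were tested, of which 16 fell and 2 rose with maturation in thymic cDC1, and 14 fell and 3 rose in cDC2 (median log2 fold change -2.93 and -3.42). Havcr2, the gene of TIM-3, had means of 9616 in immature and 243 in mature cDC1 (log2 fold change -5.33, limma, adjusted p = 2.79e-14) and of 10823 and 592 in cDC2 (-4.26, limma, adjusted p = 7.5e-12). Pirb went the other way, from 2362 to 9321 in cDC1 (log2 fold change 1.98, limma, adjusted p = 4.41e-10) and from 4078 to 10233 in cDC2 (1.33, limma, adjusted p = 7.03e-07). Fcgr2b, which encodes the inhibitory Fc receptor, fell from 8207 to 897 in cDC2 (-3.42, limma, adjusted p = 0.00228). Between the subsets, 8 of the 21 were higher and 2 lower in splenic cDC2, 10 and 3 in immature thymic cDC2, and 14 and 1 in mature thymic cDC2 (medians 0.67, 1.88 and 1.58). From spleen to thymus, 1 rose and 7 fell in cDC1, and 2 rose and 4 fell in cDC2, among them Cd22, which went from 6446 to 366 (-4.14, limma, adjusted p = 7.68e-06).

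Activating partners and adaptors of these receptors were divided by subset as well. Of 20 tested, 15 were higher in cDC2 in each of the 3 settings, and 2, 1 and 1 were lower in spleen, immature thymus and mature thymus (median log2 fold changes 3.67, 3.93 and 3.88). In splenic cDC2, Tyrobp, which encodes the adaptor DAP12, had a mean of 12613 against 5080 in cDC1 (log2 fold change 1.29, limma, adjusted p = 0.000156), and Fcer1g 6585 against 686 (3.29, limma, adjusted p = 2.66e-09). Sirpb1a, the gene of an activating relative of SIRPα, had 8713 against 239 (5.19, limma, adjusted p = 2.71e-10). With maturation 7 of the 20 fell and 0 rose in cDC1, and 16 fell and 0 rose in cDC2 (medians -0.77 and -2.57). From spleen to thymus 1 rose and 9 fell in cDC1, and 3 rose and 9 fell in cDC2.

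Signalling genes downstream of the inhibitory motif changed in both directions. Of 20 tested, 4 rose and 10 fell with maturation in cDC1, where 21.3% of all genes rose and 24.5% fell. In cDC2 3 rose and 8 fell, where 18.6% of all genes rose and 17.0% fell. The rises were thus no more frequent than over all genes. The median log2 fold changes were -0.90 in cDC1 and -0.74 in cDC2. Inpp5d, the gene of SHIP-1, had means of 19117 and 2794 in immature and mature cDC1 (log2 fold change -2.77, limma, adjusted p = 1.19e-11) and of 11700 and 2417 in cDC2 (-2.29, limma, adjusted p = 1.37e-09). Src, which encodes a kinase of the family that phosphorylates the motif, rose from 130 to 8740 in cDC1 (6.10, limma, adjusted p = 1.57e-11) and from 200.2 to 2922 in cDC2 (3.85, limma, adjusted p = 8.53e-08). Ptpn6 and Ptpn11, the genes of SHP-1 and SHP-2, were named after their values were seen. Ptpn11 fell by 1.23 in cDC1 (limma, adjusted p = 1.32e-07) and had a log2 fold change of -0.83 in cDC2 (limma, adjusted p = 7.2e-05), under the fold threshold. Ptpn6 had 0.60 in cDC1 (limma, adjusted p = 0.00776) and -0.47 in cDC2 (limma, adjusted p = 0.056), and the difference between the subsets passed the test (-1.07, limma, adjusted p = 0.0109). In spleen Ptpn6 was higher in cDC2, at 14514 against 4958 (1.57, limma, adjusted p = 1.26e-06). Between the subsets 7, 4 and 4 of the 20 were higher in cDC2 in spleen, immature thymus and mature thymus, and 0, 0 and 1 were lower. From spleen to thymus 2 rose and 0 fell in cDC1, and 2 rose and 2 fell in cDC2.

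Ligand genes other than Cd47 were also measured, although ligands act on receptors of other cells as well as of the same cell. Of 17 tested, 2 rose and 7 fell with maturation in cDC1, and 2 rose and 4 fell in cDC2 (median log2 fold changes -0.89 and -0.14). Cd24a, which encodes a ligand of Siglec-G and is a gene of the sort, had means of 12152 and 3257 in immature and mature thymic cDC1 (log2 fold change -1.91, limma, adjusted p = 7.69e-08). In cDC2 it rose from 446 in spleen to 2108 in immature thymus (2.23, limma, adjusted p = 2.62e-07). From spleen to thymus the 17 genes had 1 rise and 3 falls in cDC1, and 8 rises and 3 falls in cDC2. C1qa, whose product binds LAIR-1, rose in that comparison of cDC2 from 360 to 2289 (2.67, limma, adjusted p = 0.0393). Between the subsets 8, 9 and 9 were higher in cDC2 in spleen, immature thymus and mature thymus, and 3, 3 and 1 lower.

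Genes of sialic acid synthesis, transfer and removal, make or trim the ligands of Siglecs and of PILRα. Of 24 tested, 8 rose and 5 fell with maturation in cDC1, and 5 rose and 3 fell in cDC2 (median log2 fold changes -0.03 and 0.58). In cDC2 both counts were near the shares of all genes, of which 18.6% rose and 17.0% fell. Nans, which encodes the sialic acid synthase, rose from 1597 to 6975 in cDC1 (log2 fold change 2.14, limma, adjusted p = 1.77e-08) and from 1442 to 5090 in cDC2 (1.81, limma, adjusted p = 8.74e-07). St8sia6, the gene of a sialyltransferase, was higher in splenic cDC2 than in splenic cDC1, at 4646 against 291 (3.97, limma, adjusted p = 6.16e-12). Between the subsets 8, 6 and 6 were higher in cDC2 in spleen, immature thymus and mature thymus, and 1 was lower in each. Between spleen and thymus 0 rose in either subset, and 1 fell in cDC1 and 4 in cDC2. These counts and medians describe the 5 lists, which were not tested as sets. The shares called and the medians over all genes stand with the comparisons above.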

How the data were processed

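RNA was measured in 21 libraries of sorted cDCs in 6 groups. The authors used Cutadapt for trimming, STAR (version 2.6, from the submitters' processing notes) for alignment to mm10, HTSeq-count for counts per Ensembl gene and DESeq2 (version 1.24.0) for normalization. The deposited values are a normalized signal, the read count of a gene divided by the size factor of its library. Dividing each value by that of 1 read gave whole reads for 100% of the values. The annotation release, strand setting and treatment of reads with several matches are not given in the sources used here.

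The members and gene lists were chosen with earlier results of these data known. log2(value + 1) was fitted with limma (version 3.58.1, R 4.3.3), 1 mean per group over all 6 groups, eBayes with an intensity trend, and without lane or block. Of 37734 genes, 14970 reached 10 normalized reads in 3 or more samples and entered the test. Libraries that share pool, index and lane were counted once if they differed less than every other pair of the group, which left 20 samples. Positions came from GENCODE M21, in which 37607 identifiers were found, and promoters from RefSeq. From each list the text names called genes among the 3 with the highest mean over the groups compared, and the 3 genes most correlated with Sirpa and Siglecg.

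Alternatives were edgeR (version 4.0.16) and DESeq2 (version 1.42.0) on the recovered reads, other pseudocounts, filters, thresholds, scaling, fitted groups, lane, pool and omission of each sample. Lane 8 alone was added after the data were seen. The methods were tested on simulated data. Depth of 14266867 to 40119669 reads makes 1 read worth 0.625 to 1.84 normalized reads, and intervals cover the spread between samples.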

Additional observations from a re-analysis of the deposited data

Results flagged for a closer look

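In the main fit the effect of maturation was called different between thymic cDC2 and cDC1 for 4 genes, and the effect of the organ for 1. For Sirpa the maturation effect (cDC2 minus cDC1, log2) was -1.80 and the organ effect 1.64, both past the limma threshold. In lane 8 alone the organ effect of Sirpa was 1.49 and lost its call (limma, adjusted p = 0.234). The maturation effects of Siglecg and Lair1 differed by 1.32 and 1.22, and that of Siglece by -2.90. Over 36 alternatives, which include edgeR and DESeq2, the adjusted p ranged from 1.43e-07 to 0.00671 for Siglecg, from 0.00519 to 0.258 for Lair1 and from 7.17e-06 to 0.795 for Siglece. Siglece was at 0 in the 3 mature thymic cDC1 samples and in 2 of 4 immature ones.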

How the results depend on the processing

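Over 36 or 37 alternatives per result, 2495 log2 fold changes kept direction and call, 77 lost a call, 29 gained one and 7 reversed. The 7 were differences that had not passed the test or rested on values near 0. The maturation difference of Cd300a was -0.024 with edgeR, -0.40 with a pseudocount of 8 and -0.16 to 1.47 as single samples were left out, negative only without TH1Plus replicate 1. With edgeR, that of Siglece was 0.60, and with a pseudocount of 8 that of Cd300lf was -0.096 and that of Pilra -0.55. The mature subset difference of Cd47 was -0.21 to 0.012 as single samples were left out, positive only without TH2Plus replicate 2. The causes were not tested.

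The number of genes called among the 8 depended most on the setting for the organ difference between subsets, where 1 was called. It was 4 with edgeR, 4 with DESeq2, 3 with a pseudocount of 8, 3 with only the groups compared, 2 without a fold threshold, 2 with every library as its own sample, and 0 in lane 8 alone or with a log2 threshold of 2. That threshold left 3 of the genes called for maturation in cDC1, 3 in cDC2, 1 for the maturation difference and 0 for the organ in cDC2, which had 1 in lane 8 alone. Leaving out single samples gave 6 to 7 calls for maturation in cDC1, 3 to 5 in cDC2, 5 to 6 for the organ in cDC1, 2 to 3 in cDC2, 7 to 7 for each subset comparison, 3 to 6 for the maturation difference and 1 to 2 for the organ difference.

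The labels give a pool number. Samples with the same number correlated at -0.15 to 0.46, and samples with different numbers at -0.49 to 0.26. The consensus correlation within pools was 0.155. Not all pairs with the same number were above 0.1, and the fit reported has no block. Samples that share a pool number therefore enter it as separate samples. With the pool as a random replicate block the counts were 7, 5, 5, 2, 7, 7, 7, 4 and 2 in the order maturation (cDC1, cDC2), organ (cDC1, cDC2), subset (spleen, immature thymus, mature thymus) and the differences for maturation and organ. With the pool as a fixed block they were 7 and 7 for the subset comparisons in spleen and immature thymus. Over all genes, the organ difference had 746 calls, and 225 in lane 8 alone. Depth limits Siglece and Pilra in cDC1.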
